A study of Bos taurus and Ovis aries and Capra hircus with 18 samples.

Results

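GABA is the main inhibitory transmitter of the mammalian brain. It is made from glutamate by the glutamate decarboxylases encoded by GAD1 and GAD2, packed into synaptic vesicles by the transporter encoded by SLC32A1, and sensed by GABA-A receptors, chloride channels built from several subunits, and by GABA-B receptors, which signal through G proteins. Interneurons, the local inhibitory cells of the cortex, are often sorted by the calcium-binding proteins they hold, among them parvalbumin (PVALB) and calbindin (CALB1).

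The 7 genes GAD1, GAD2, SLC32A1, GABRB2, GABRD, PVALB and CALB1 were followed through adult brain and adult muscle of cattle, sheep and goat, in 3 libraries of poly(A) RNA for each of the 6 groups (cattle brain, cattle muscle, sheep brain, sheep muscle, goat brain and goat muscle), 18 libraries in all. The genes were taken as a list by a rule that used no measured value, but earlier results of these data were known. All 7 were found among the 13498 genes matched in the 3 species. The labels give frozen tissue and TRIzol extraction for every group, and no treatment or genotype. Which brain region and which muscle were taken is not named there. Nor is it said whether the library letters A to C mark different animals, and p-values here measure only the spread between libraries.

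The cattle genes were found by position on ARS-UCD1.2. GAD1 lies on the minus strand at chr2:25604286-25643331, with 3275 bases of exon. GAD2 lies on the plus strand at chr13:26665423-26728690, with 3547 bases of exon. SLC32A1 lies on the same chromosome and strand, at chr13:67535037-67539706, with 2323 bases of exon. These 3 genes make and load the transmitter.

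GABRB2, which encodes a beta subunit of the GABA-A receptor, lies on the minus strand at chr7:72984740-73272177, with 1931 bases of exon. GABRD, which encodes the delta subunit of receptors that mostly sit outside the synapse, lies on the minus strand at chr16:50708331-50725360, with 3859 bases. PVALB lies on the minus strand at chr5:75176504-75193657, with 724 bases, and CALB1 on the plus strand at chr14:73654320-73676317, with 2616 bases. No other gene's exons overlapped those of any of the 7 in any species.

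The sheep and goat partners came from shared exon lengths and gene order. GAD1, GAD2 and CALB1 were matched from pairs of neighbouring exon lengths in both species. SLC32A1, GABRD and PVALB rested on 1 shared exon length or more between matched neighbours. GABRB2 was matched the first way in sheep and the second way in goat. Exonic length differed most between species for CALB1 (786 bases in sheep and in goat), GAD2 (1752 in sheep and 5793 in goat) and PVALB (452 in sheep and 1262 in goat), and GABRD had 1628 bases in sheep and 1742 in goat. Levels are therefore given as read counts scaled by exonic length and by library size (RPKM).

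Depth ran from 20730803 to 58514630 counts per library, and 17204 to 20221 genes were detected. The brain libraries held SNAP25, a protein of the presynaptic release machinery, at 312.1 to 1284 RPKM, and the muscle libraries held it at 0 to 0.505 RPKM. The muscle libraries held CASQ1, the calcium store protein of fast fibres, at 1388 to 3205 RPKM, and the brain libraries held it at 0.266 to 1.61 RPKM. Of the markers of cortical excitatory neurons, SLC17A7 stood at 172 to 333 RPKM and TBR1 at 2.08 to 18.3 RPKM in the 9 brain libraries. GRIN2B of the same list was lower, at 0.200 to 2.26 RPKM. NEUROD2, measured in 6 of these libraries, ran from 0.173 to 33.6 RPKM. GABRA6, the GABA-A subunit that marks cerebellar granule cells, had 12 counts over the 9 brain libraries and none in 4 of them. One library stood apart. The Spearman correlation of sheep brain C was 0.869 with library A and 0.87 with library B of that group, while A and B correlated at 0.99 and no pair within another group fell under 0.953. The tests of sheep brain were also run without library C.

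GAD1, GAD2, SLC32A1, GABRB2, GABRD and PVALB were higher in brain than in muscle in all 3 species. CALB1 was higher in brain in goat, was lower in brain in sheep and was not tested in cattle. A gene was called when edgeR's quasi-likelihood test gave a Benjamini-Hochberg (BH) adjusted p below 0.05 over all genes tested and an absolute log2 difference of at least 1. By this rule 6 of the 6 genes tested were higher in brain than in muscle in cattle, 6 of 7 in sheep and 7 of 7 in goat, and the sheep count was 6 of 7 without sheep brain C as well. Over all genes tested 33.9% were called higher in brain in cattle, 28.6% in sheep and 31.4% in goat. In a fit over the 3 species, 6 of the 7 were called higher in brain, against 30.6% of all genes, and CALB1 was not (0.48 ± 0.567 log2 units, BH-adjusted p = 0.463). Of all calls, 57.3%, 59.9% and 57.6% went to the higher side in cattle, sheep and goat, and with library totals as the only scaling these shares were 75.9%, 83.4% and 77.8%. Scaling by totals also placed the median gene of these comparisons 0.762, 1.11 and 0.858 log2 units higher in brain, against 0.0914, 0.173 and 0.119 here. In bulk tissue, fewer cells of a type and less RNA per cell cannot be told apart.

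**Figure D1:**
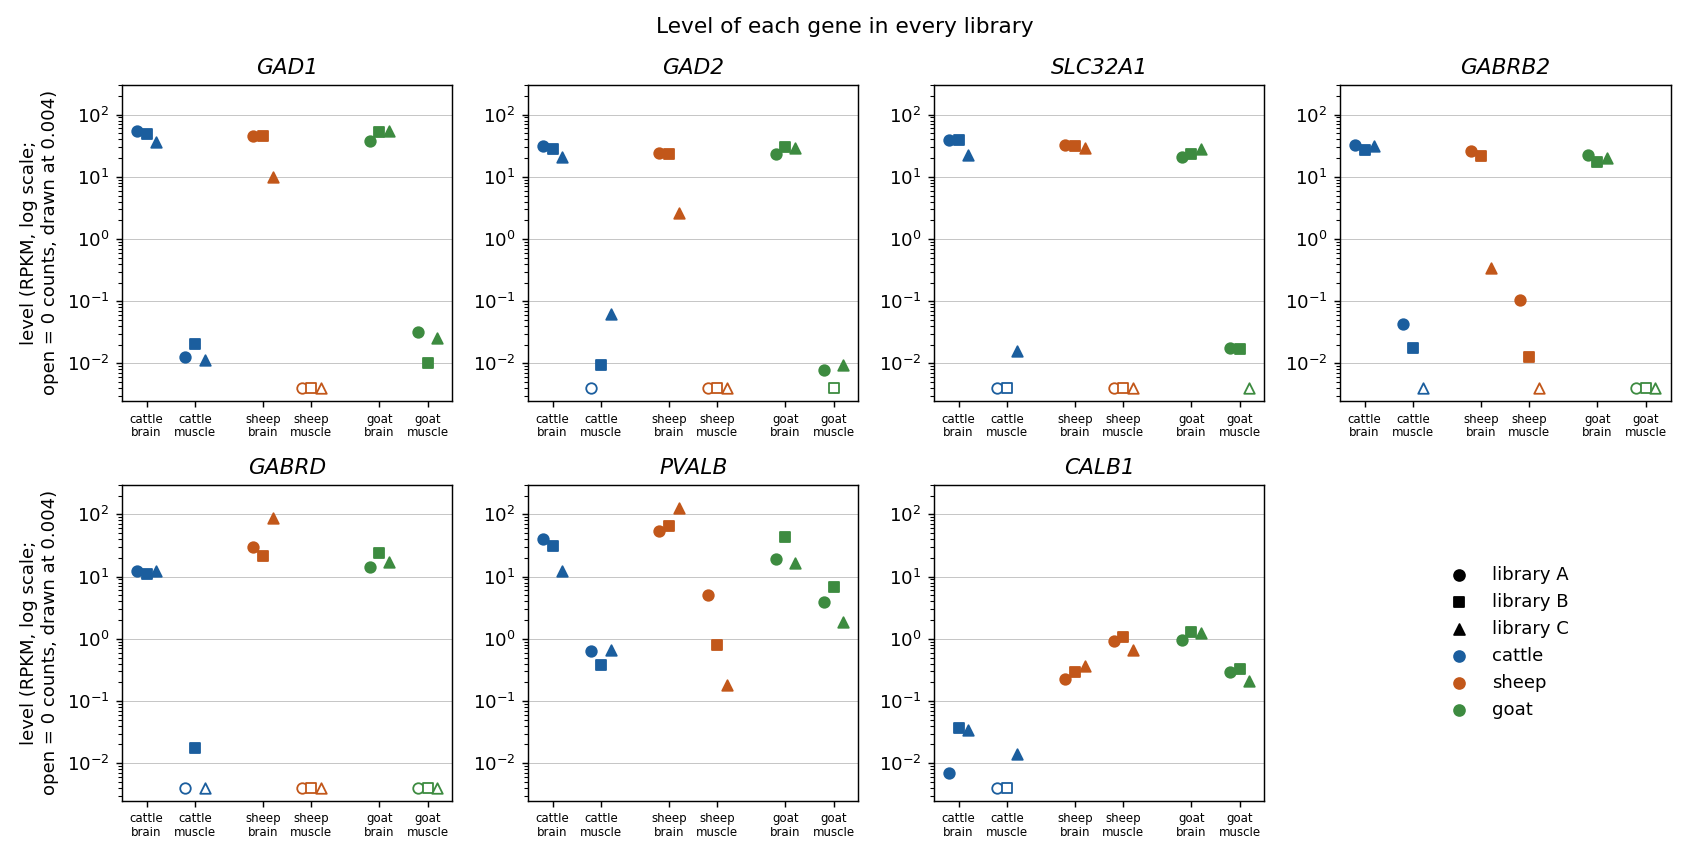
Level of each of the 7 genes in RPKM on a log axis, with 1 point per library (circle A, square B, triangle C), brain left of muscle within cattle, sheep and goat; open points are libraries with 0 counts, drawn at 0.004. The brain points lie far above the muscle points for GAD1, GAD2, SLC32A1 and GABRD, the triangle of sheep brain is at 0.340 RPKM for GABRB2, and CALB1 is higher in brain in goat and lower in brain in sheep.

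GAD1 encodes the decarboxylase that supplies most GABA in the cell body. It stood at 53.7, 48.6 and 36.4 RPKM in cattle brain, 45.2, 45.3 and 9.94 RPKM in sheep brain and 37.9, 52.4 and 53.7 RPKM in goat brain. In muscle it had 1, 2 and 1 counts in cattle, 0 in each sheep library and 3, 1 and 2 counts in goat. The tissues did not overlap in any species, and the low value among brains was sheep brain C. The brain minus muscle difference was 11.58 ± 0.316 log2 units (SE) in cattle and 11.05 ± 0.442 in goat, with BH-adjusted p of 4.99e-08 and 5.55e-07 from edgeR. In sheep the level was at least 2601-fold higher in brain, with 3 counts over the group as the floor for muscle, and at least 3412-fold higher without sheep brain C.

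GAD2 encodes the decarboxylase found mainly at nerve terminals. Its levels were 31.5, 27.5 and 20.8 RPKM in cattle brain, 24.3, 23.4 and 2.63 RPKM in sheep brain and 23.5, 30.2 and 29.2 RPKM in goat brain. Muscle held 0, 1 and 6 counts in cattle, none in sheep, and 1, 0 and 1 counts in goat. Again the tissues did not overlap and sheep brain C was the lowest brain. The difference was 10.13 ± 0.493 log2 units in cattle (edgeR, BH-adjusted p = 4.3e-07), and sheep brain exceeded sheep muscle at least 1138-fold, or at least 1561-fold without library C. Goat muscle held only 2 counts, and the ratio of summed counts was 5029 with a 95% counting interval of 1392 to 41530. This interval and those that follow cover counting error only, since the labels name no molecular identifiers.

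SLC32A1 marks inhibitory terminals, as it fills the vesicles with GABA or glycine. It was measured at 39.3, 38.9 and 22.4 RPKM in cattle brain, 32.7, 31.2 and 28.8 RPKM in sheep brain and 21.0, 23.5 and 28.0 RPKM in goat brain. Sheep brain C lay close to the other sheep libraries here, unlike for both decarboxylases. In muscle it had 0, 0 and 1 counts in cattle, 0 in sheep and 1, 1 and 0 counts in goat. Brain exceeded muscle by a counted ratio of 6318 (1134 to 249600) in cattle and 1943 (537.7 to 16050) in goat, and at least 1833-fold in sheep (1888-fold without library C). The gene was called in each species, with BH-adjusted p of 1.97e-07 in cattle, 0.00012 in sheep and 6.8e-07 in goat from edgeR.

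The 2 receptor subunits were both all but absent from muscle and parted within sheep brain. GABRB2 stood at 32.8, 26.9 and 31.6 RPKM in cattle brain, 26.0, 21.8 and 0.340 RPKM in sheep brain and 22.6, 17.6 and 19.9 RPKM in goat brain. Its muscle counts were 2, 1 and 0 in cattle, 8, 1 and 0 in sheep and 0 in each goat library. Sheep brain C, with 29 counts, lay nearer to sheep muscle A, at 0.107 RPKM, than to either of the other sheep brains. The sheep difference was 8.62 ± 1.9 log2 units with all libraries (BH-adjusted p = 0.00921) and 9.19 ± 0.532 without sheep brain C (1.06e-05), both from edgeR. Goat brain exceeded goat muscle at least 851.9-fold, and the counted ratio in cattle was 1592 (544.6 to 7721).

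GABRD stood at 12.3, 11.2 and 12.1 RPKM in cattle brain, 29.6, 21.6 and 86.6 RPKM in sheep brain and 14.4, 23.7 and 17.1 RPKM in goat brain. Its only muscle counts in the study were 2 in cattle muscle B. Sheep brain C was the highest of the 9 brains for GABRD and the lowest for GABRB2. Brain exceeded muscle in sheep at least 2682-fold (1544-fold without library C) and in goat at least 658.7-fold, and by a counted ratio of 1851 (512.2 to 15290) in cattle. The BH-adjusted p from edgeR was 1.23e-07 in cattle, 0.00103 in sheep and 6.09e-06 in goat.

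PVALB, the calcium buffer of fast-spiking interneurons, was higher in brain in each species, by smaller differences than the 5 genes above. The protein is also known from fast muscle fibres of rodents. Brain levels were 39.5, 30.5 and 12.5 RPKM in cattle, 54.0, 65.9 and 128 RPKM in sheep and 19.4, 43.8 and 16.3 RPKM in goat. Muscle levels were 0.643, 0.374 and 0.657 RPKM in cattle, 4.97, 0.800 and 0.183 RPKM in sheep and 3.86, 6.74 and 1.89 RPKM in goat. The tissues did not overlap in any species, and goat came nearest to overlap. Brain minus muscle was 5.72 ± 0.509 log2 units in cattle (edgeR, BH-adjusted p = 1.49e-05), 5.38 ± 1.15 in sheep (0.00815) and 2.71 ± 0.55 in goat (0.00231). Without sheep brain C the sheep value was 4.92 ± 0.934 (0.00456). The goat difference was not shown to be smaller. The cattle difference minus the goat difference was 2.96 ± 1.11 log2 units and missed the threshold in edgeR (BH-adjusted p = 0.088), as did sheep minus goat at 2.71 ± 1.05 (0.12). In cattle against goat edgeR called 0 of the 7 genes for such a difference, 1 had an unadjusted p below 0.05, and 13.6% of all genes were called. With DESeq2 the cattle and goat differences did differ (3.04, adjusted p = 0.0306), as they did in edgeR without sheep muscle A (2.96, BH-adjusted p = 0.0317) or sheep muscle C (2.96, 0.0497), in a range of 0.0306 to 0.192 over all alternatives. Without sheep muscle A sheep minus goat was 4.70 log2 units (BH-adjusted p = 0.0143, in a range of 0.0143 to 0.237).

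CALB1 was scarce in every library, although its protein is a standard label of interneurons and of cerebellar Purkinje cells. Cattle brain held 1, 4 and 4 counts and cattle muscle 0, 0 and 1, too few to pass the filter on low counts. Sheep brain held 8, 12 and 12 counts, or 0.227, 0.293 and 0.360 RPKM, and sheep muscle 27, 33 and 19 counts, or 0.920, 1.08 and 0.667 RPKM. Goat brain held 33, 33 and 42 counts, or 0.961, 1.29 and 1.22 RPKM, and goat muscle 5, 6 and 3 counts, or 0.290, 0.331 and 0.207 RPKM. All 3 brains lay below all 3 muscles in sheep and above all 3 muscles in goat.

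The goat difference for CALB1 was 2.08 ± 0.484 log2 units higher in brain (edgeR, BH-adjusted p = 0.00488). In sheep CALB1 was lower in brain, at -1.58 ± 0.432 log2 units (0.0203), where 19.1% of all genes were called lower, and at -1.74 ± 0.472 (0.0123) without sheep brain C. The sheep call was lost with library totals as the only scaling (-0.66, BH-adjusted p = 0.215) and when A or B of either sheep group was left out (0.0728 to 0.091), in a range of 0.0123 to 0.215 over all alternatives. The sheep difference minus the goat difference was -3.64 ± 0.748 log2 units (edgeR, BH-adjusted p = 0.00864), in a comparison that called 7.43% of all genes. Cattle minus sheep was 3.53 ± 1.03 (0.0224), where 20.2% of all genes were called, and it rests on 9 brain counts and 1 muscle count in cattle. It missed the threshold without cattle brain B or C or cattle muscle A or B, with adjusted p up to 0.0652, in a range from 0.0137. These 2 differences were -3.80 (0.00741) and 3.70 (0.0202) when sheep brain C was left out. CALB2, which encodes the related buffer calretinin and was matched in cattle and goat, stood at 13.5, 10.7 and 30.3 RPKM in cattle brain and 5.50, 5.08 and 28.3 RPKM in goat brain.

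Per kilobase of exon, the order of the 7 genes over the 9 brain libraries ran from GAD1 at a median of 45.3 RPKM through PVALB (39.5), SLC32A1 (28.8), GAD2 (24.3), GABRB2 (22.6) and GABRD (17.1) to CALB1 (0.293). Without sheep brain C, GAD1 spanned 36.4 to 53.7 RPKM and GAD2 20.8 to 31.5 RPKM, so that these ranges did not meet. PVALB, at 12.5 to 65.9 RPKM, overlapped every other gene but CALB1, and SLC32A1, GAD2, GABRB2 and GABRD each overlapped the gene before it in the order. CALB1, with a highest value of 1.29 RPKM, lay below every brain value of the other 6 genes outside sheep brain C. Outside sheep brain C, the highest library exceeded the lowest 1.47-fold for GAD1, 1.51-fold for GAD2, 1.86-fold for GABRB2, 1.88-fold for SLC32A1, 2.65-fold for GABRD and 5.29-fold for PVALB.

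The GAD1 to GAD2 ratio varied least outside sheep brain C among the 4 ratios formed between these genes. It lay at 1.71, 1.77 and 1.75 in cattle brain, 1.86, 1.94 and 3.79 in sheep brain and 1.61, 1.74 and 1.84 in goat brain. The GABRD to GABRB2 ratio was 0.375, 0.415 and 0.383 in cattle brain, 1.14, 0.991 and 254.5 in sheep brain and 0.636, 1.35 and 0.860 in goat brain. Cattle had the lowest of these ratios in every library, and sheep brain C stood far above all others. The PVALB to GAD1 ratio ran from 0.304 to 1.45 outside sheep brain C, where it was 12.9. All ratios carry the lengths of the gene models, which differ between species.

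Sheep brain C split the GABA genes. Relative to the mean of sheep brain A and B the difference was -5.77 log2 units for GABRB2, -3.13 for GAD2, -2.18 for GAD1, -0.147 for SLC32A1, 1.09 for PVALB and 1.75 for GABRD. Over all 10290 genes compared the median was -0.0417, with 90% of genes between -3.02 and 1.94. Both decarboxylases and GABRB2 were thus low in this library while GABRD was high. GABRB2 stood at the 0.0194 percentile of these genes, GAD2 at 4.36, GAD1 at 12.8 and GABRD at 92.4. Other subunits were also low in this library, with GABRA2 at 3.76 RPKM, against 17.0 and 18.1 RPKM in sheep brain A and B. GABRA4 had 5.52 RPKM in it, against 17.3 and 18.5 RPKM. The summed level of 11 pan-neuronal markers was 2907 RPKM in sheep brain C, against 3615 and 3179 RPKM. The 8 matched markers of cortical excitatory neurons summed to 401.6 RPKM, against 1162 and 1278 RPKM. In the same library the third of genes with the shortest cattle exonic length had a median of 0.535 log2 units and the third with the longest -0.729. The part of gene length in these differences was not tested for single genes.

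**Figure D2:**
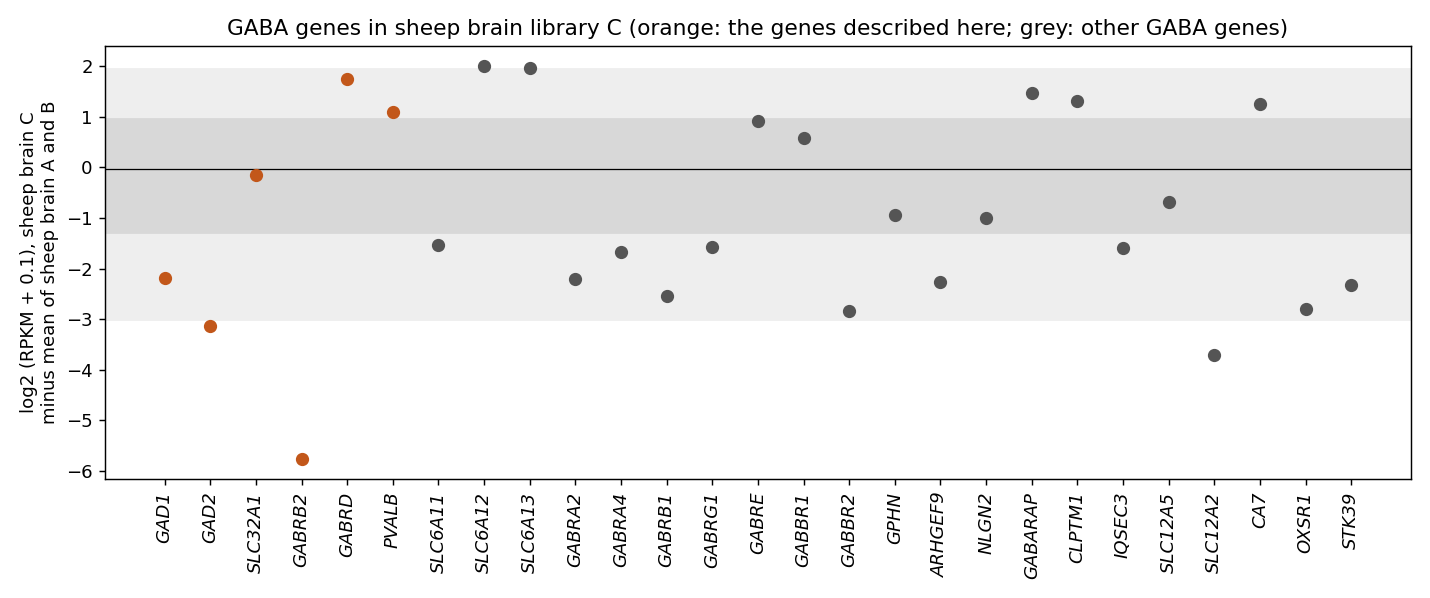
Log2 of RPKM plus 0.1 in sheep brain C minus the mean of sheep brain A and B, for 6 of the 7 genes (orange) and for other GABA genes (grey); the shaded bands hold the middle 50% and 90% of all 10290 genes compared, and the line is their median. GABRB2 at -5.77 lies below the outer band, while GABRD at 1.75 lies near its upper edge.

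Smaller departures touched other brain libraries. Cattle brain C was low for PVALB, at 12.5 RPKM, against 39.5 and 30.5 RPKM in cattle brain A and B. The difference of -1.48 log2 units put it at the 0.336 percentile of the genes compared. SLC32A1 was also low there, at -0.802 log2 units, and CALB2 was high, at 30.3 RPKM. The RNA levels of CALB2 and PVALB thus moved apart in cattle brain C. Goat brain C likewise had the highest CALB2 and the lowest PVALB of the goat brains. Goat brain B had the highest PVALB of the goat brains, at 43.8 RPKM. Goat brain A held less GAD1 than goat brain B and C, and its 8 oligodendrocyte markers summed to 29270 RPKM, against 4616 and 5061 RPKM. The part of these markers in the levels of GAD1 was not tested.

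Between species the decarboxylases and the vesicular transporter were not called different in brain. In cattle against goat the difference was -0.05 ± 0.411 log2 units for GAD1 and -0.05 ± 0.584 for GAD2, with intervals of 2 SE that reached from -0.875 to 0.768 and from -1.22 to 1.11. Differences of either sign, up to about the least size called, lie within these intervals. For SLC32A1 it was 0.47 ± 0.292 log2 units in cattle against goat, 0.12 ± 0.291 in cattle against sheep and 0.36 ± 0.292 in sheep against goat, and without sheep brain C the last 2 were 0.14 ± 0.27 and 0.32 ± 0.268. In cattle against sheep GAD1 differed by 0.47 ± 0.412 and GAD2 by 0.67 ± 0.588, and without sheep brain C by 0.10 ± 0.222 and 0.23 ± 0.315. Leaving out that library thus took most of the sheep difference away for both decarboxylases. Sheep minus goat was -0.52 ± 0.412 for GAD1 and -0.72 ± 0.588 for GAD2, and without sheep brain C -0.17 ± 0.222 and -0.30 ± 0.315. Both were called in sheep against goat when exonic length was left out of the fit, at -1.48 (edgeR, BH-adjusted p = 0.0227, the lowest of a range up to 0.64) and -2.33 (0.0157, the lowest of a range up to 0.594). The goat models of both genes are longer than the sheep models.

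GABRD and CALB1 were the 2 genes of the 7 called between cattle and sheep brain, where 26.2% of all genes were called. GABRD was lower in cattle brain, at -1.95 ± 0.481 log2 units (edgeR, BH-adjusted p = 0.00855), and without sheep brain C the value was -1.04 ± 0.288 (0.0166). Per kilobase of exon, all 3 cattle brains lay below all 3 sheep brains for GABRD. Read counts scaled by library size alone (CPM) were 47.5, 43.0 and 46.8 in cattle brain and 48.2, 35.2 and 141 in sheep brain. On this scale each cattle brain lay between sheep brain A and B, so the difference left without sheep brain C rests on exonic length. Without the length offset the edgeR call was lost (-1.15, BH-adjusted p = 0.0742). It was also lost in a fit of the cattle and sheep brains alone (-1.95, BH-adjusted p = 0.0667), and the range over all alternatives was 0.00109 to 0.0742. Sheep against goat gave 1.32 ± 0.473 for GABRD (0.0637), and 0.39 ± 0.29 (0.388) without sheep brain C. It was called without sheep brain A (0.0396) or B (0.0182), which gives library C more weight. Cattle against goat gave -0.63 ± 0.467 (0.348). The GABRD difference between sheep and goat thus rests on sheep brain C. GABRB2 was not called in any pair, at 0.92 ± 0.861 in cattle against sheep, 0.60 ± 0.857 in cattle against goat and -0.32 ± 0.855 in sheep against goat. With sheep brain C left out, its difference was 0.42 ± 0.354 in cattle against sheep and 0.17 ± 0.349 in sheep against goat.

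CALB1 was lower in cattle brain than in sheep brain, at -3.42 ± 0.59 log2 units (edgeR, BH-adjusted p = 0.000436), and lower than in goat brain, at -5.39 ± 0.595 (5.45e-06). It was the only one of the 7 genes called in cattle against goat brain, where 23.6% of all genes were called. It was also the only one in sheep against goat brain, at -1.97 ± 0.509 (0.00984), where 18.7% were called. Leaving out sheep brain C gave -3.20 ± 0.636 (0.00138) for cattle minus sheep and -2.22 ± 0.578 (0.0103) for sheep minus goat. The 3 brain groups did not overlap, with cattle lowest, sheep next and goat highest. The cattle end of this order rests on 9 counts. In a fit of the sheep and goat brains alone the difference was -1.97 with a BH-adjusted p of 0.0531, the highest of a range from 0.000714. In muscle CALB1 was highest in sheep, with cattle minus sheep at -6.96 ± 0.746 (3.38e-06) and sheep minus goat at 1.67 ± 0.549 (0.0304; 0.0238 to 0.0983 over all alternatives, and above the threshold without sheep muscle A or B or any 1 goat muscle), in comparisons that called 29.6% and 23.6% of all genes. The cattle side of the muscle difference rests on 1 count, and cattle minus sheep there ran from -8.48 to -6.49 with 1 library left out. The sheep and goat gene models of CALB1 have the same exonic length, but the cattle model is longer. The size of each cattle difference therefore depends on the length offset. Scaled by library size alone, the brains kept their order with smaller gaps to cattle. They stood at 0.0183, 0.0971 and 0.0884 CPM in cattle, 0.179, 0.231 and 0.283 in sheep and 0.756, 1.01 and 0.957 in goat.

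PVALB was not called between any pair of species in brain. Its brain difference was -1.59 ± 0.726 log2 units in cattle against sheep (edgeR, BH-adjusted p = 0.107), 1.64 ± 0.726 in sheep against goat (0.118) and 0.05 ± 0.709 in cattle against goat (0.968). Without sheep brain C the values were -1.05 ± 0.712, 1.08 ± 0.711 and 0.03 ± 0.646. Without sheep muscle A both sheep differences were called (-1.59, BH-adjusted p = 0.0415, and 1.64, 0.0472). Per kilobase of exon, the cattle and goat brains overlapped, whereas each sheep brain lay above every cattle brain and every goat brain. This separation depends on the exonic length of PVALB, which was 724 bases in cattle, 452 in sheep and 1262 in goat. Scaled by library size alone, the sheep brains overlapped both other species. Cattle brain ran from 9.02 to 28.6 CPM, sheep brain from 24.4 to 57.9 CPM and goat brain from 20.6 to 55.3 CPM.

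**Figure D3:**
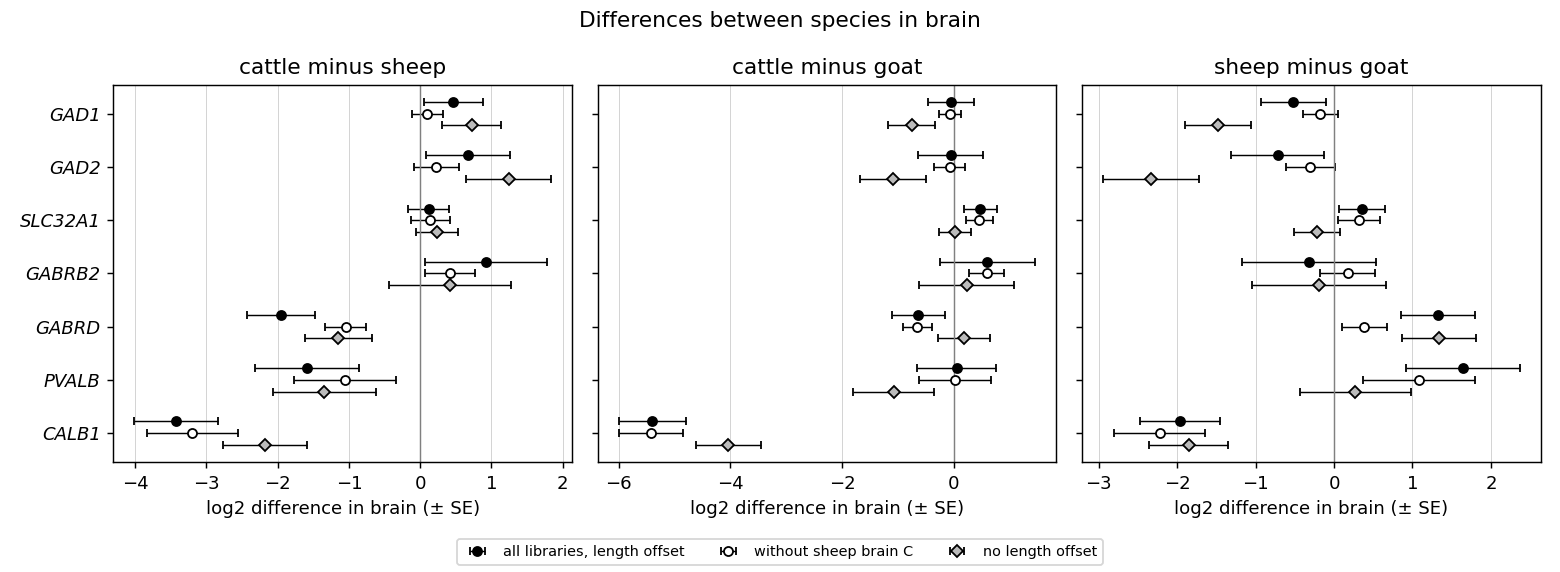
Log2 difference in brain between species for each gene (± SE) in cattle minus sheep, cattle minus goat and sheep minus goat, from all libraries with exonic length in the fit (black), without sheep brain C (white) and without exonic length (grey diamonds). CALB1 lies farthest from 0, at -5.39 in cattle minus goat, and GABRD in cattle minus sheep is at -1.95 with all libraries and at -1.04 without sheep brain C.

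In muscle PVALB was lower in cattle than in goat, at -2.91 ± 0.857 log2 units (edgeR, BH-adjusted p = 0.0123), where 34.1% of all genes were called, and the cattle libraries all lay below the goat libraries. It narrowly missed the threshold without cattle muscle B (0.0521) or goat muscle B (0.0503), where all alternatives gave 0.000625 to 0.0521. Cattle against sheep gave -1.83 ± 0.872 (0.113) and sheep against goat -1.07 ± 0.767 (0.319). The sheep libraries spread from 0.183 to 4.97 RPKM and overlapped both other species. Without sheep muscle A the 2 sheep values were 0.16 (0.921) and -3.06 log2 units (0.0111, called), and without sheep muscle C cattle against sheep was called at -2.37 (0.0312). Over all alternatives the adjusted p of these differences ran from 0.0312 to 0.921 and from 0.0111 to 0.686.

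PVALB stood below the other matched fast-fibre genes in these muscles, except that it lay above MYH4 in cattle muscle A and C. The 9 other matched fast-fibre genes summed to 36130, 63300 and 51100 RPKM in cattle muscle, 78720, 63750 and 66280 RPKM in sheep muscle and 51350, 46290 and 102600 RPKM in goat muscle. Of the fast-fibre list 1 gene was called higher in brain in each species, and it was PVALB. In the same list 9 of 11 were called lower in cattle, 10 of 11 in sheep and 9 of 10 in goat. Over all genes 25.3%, 19.1% and 23.2% were called lower, and 33.9%, 28.6% and 31.4% higher. Within goat muscle, library C had the highest fast-fibre sum and the lowest PVALB, as library B had within cattle muscle. Within sheep muscle, library A was highest for both. The part of fast fibres in the muscle level of PVALB was not tested. MYH4, a fast myosin heavy chain, was at 0.0361, 0.675 and 0.212 RPKM in cattle muscle, against 103, 182 and 196 RPKM in sheep muscle. MYH4 has close relatives in the same gene cluster, and reads may be split between them.

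Sheep muscle A, the sheep muscle with the most PVALB, held SOX10, a factor of glia that include Schwann cells, at 1.99 RPKM, against 0.824 and 0.861 RPKM in the other sheep muscles. The 6 matched nerve and Schwann markers summed to 61.4, 62.8 and 56.1 RPKM in cattle muscle, 82.7, 65.8 and 53.1 RPKM in sheep muscle and 63.1, 64.5 and 98.8 RPKM in goat muscle. Of these NEFH, a neurofilament subunit of large axons, was at 0 in all 3 sheep muscles. In goat muscle and in cattle muscle the library with the highest sum had the lowest PVALB. In sheep muscle the library with the highest sum had the most PVALB. The part of nerve tissue in the muscle level of PVALB was not tested.

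**Figure D4:**
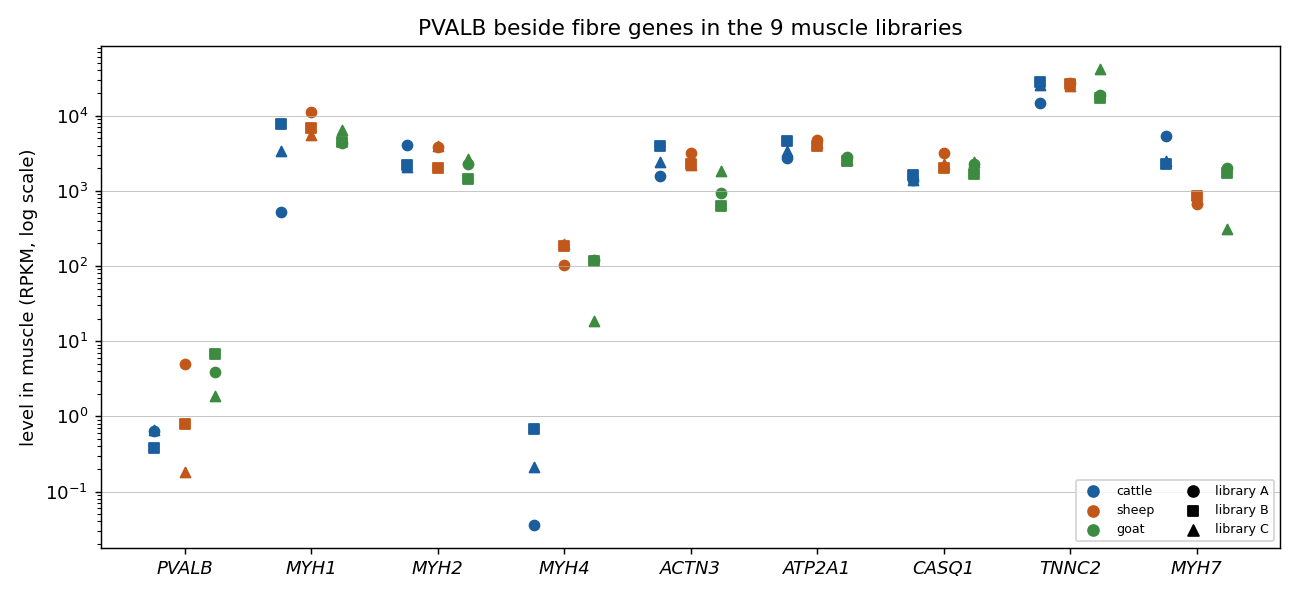
Level of PVALB, of 7 fast-fibre genes and of MYH7, the slow myosin heavy chain, in the 9 muscle libraries (RPKM, log axis; color gives the species and shape the library). PVALB lies between 0.183 and 6.74 RPKM, below every value of CASQ1, whose lowest is 1388 RPKM.

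The rest of the pathway was listed as 47 other genes of GABA synthesis and breakdown, uptake, receptors, the inhibitory postsynapse and the chloride gradient. In cattle 26 of the 34 tested were called higher in brain, 2 lower and 6 were not called. Of all cattle genes 33.9% were called higher and 25.3% lower. In sheep 20 of 31 were called higher and in goat 21 of 29, and the others there were not called by edgeR. Of all genes 28.6% were called higher and 19.1% lower in sheep, and 31.4% and 23.2% in goat. The sheep counts without library C were 24 higher and 3 lower of the 31, the 3 being SLC38A2, GABRE and OXSR1. In that fit 31.7% of all genes were called higher and 24.3% lower. The median difference was 7.08 log2 units in cattle, 5.5 in sheep and 5.53 in goat, and 6.8, 5.5 and 5.53 with genes at 0 in muscle set at their bound. Over all genes the medians were 0.0914, 0.173 and 0.119. For the genes tested among the 7 the medians with such bounds were 10.7, 10.2 and 9.73.

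The GABA-A subunits followed GABRB2 and GABRD. Of the other subunits 10 of 11 were called higher in cattle brain, 8 of 9 in sheep brain and 6 of 7 in goat brain. Over all genes the shares called higher were 33.9%, 28.6% and 31.4%. The exception in each species was GABRE, the epsilon subunit. GABRE was low, at 0.464, 0.492 and 1.15 RPKM in cattle brain, and its difference was 0.84 log2 units in cattle, -0.86 in sheep and -0.35 in goat. Without sheep brain C it was called lower in sheep brain, at -1.26 ± 0.333 (edgeR, BH-adjusted p = 0.011). GABRA4, an alpha subunit often paired with GABRD in forebrain receptors, was higher by 11.88 ± 0.368 log2 units in cattle, 10.13 ± 0.896 in sheep (10.50 ± 0.309 without library C) and 9.65 ± 0.654 in goat. Its level was 21.8, 20.5 and 28.5 RPKM in cattle brain, 17.3, 18.5 and 5.52 RPKM in sheep brain and 12.5, 19.9 and 17.2 RPKM in goat brain. Each cattle brain lay above each sheep and goat brain for GABRA4, with sheep brain C lowest.

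**Figure D5:**
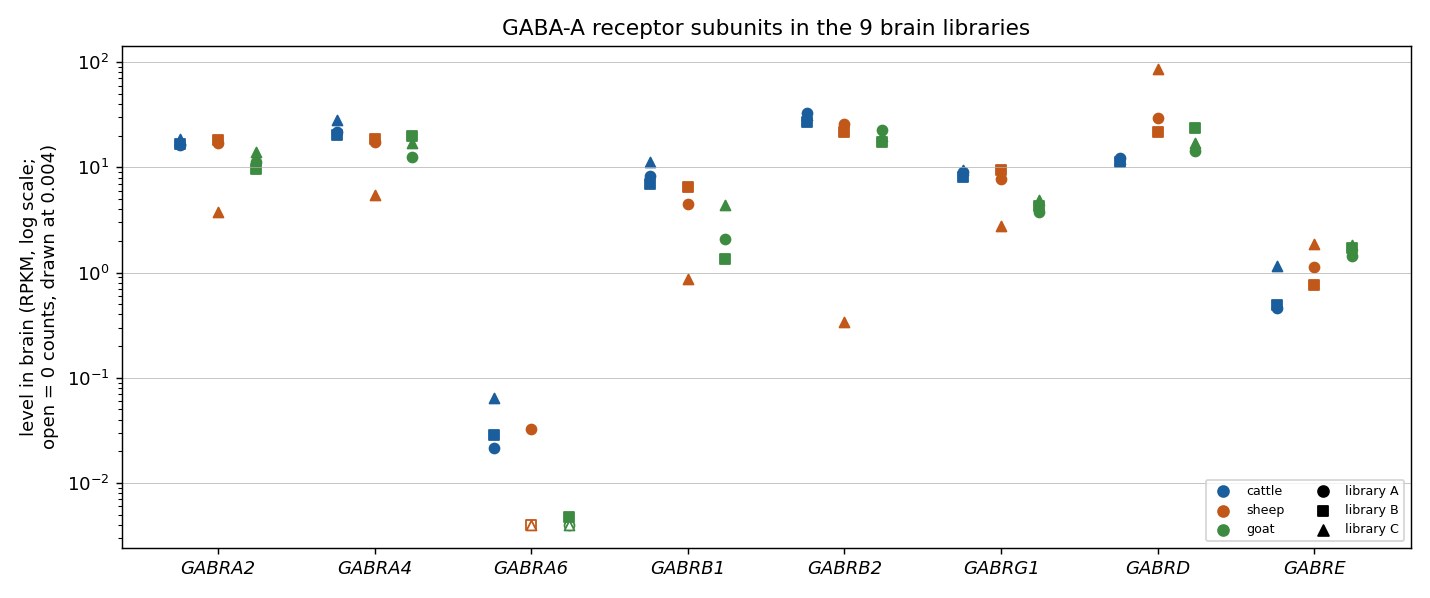
Level of 8 GABA-A receptor subunit genes in the 9 brain libraries (RPKM, log axis; color gives the species and shape the library; open points are 0 counts, drawn at 0.004). GABRA6 stays at or below 0.0647 RPKM, and in sheep brain C (orange triangles) GABRB2 is at 0.340 RPKM while GABRD is at 86.6 RPKM.

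The GABA-B receptor subunits GABBR1 and GABBR2 were called higher in brain in each species. GABBR1 stood at 286, 282 and 174 RPKM in cattle brain, 207, 195 and 300.2 RPKM in sheep brain and 96.7, 98.7 and 114 RPKM in goat brain. It was higher in cattle than in goat brain by 1.26 ± 0.323 log2 units (edgeR, BH-adjusted p = 0.00755) and in sheep than in goat brain by 1.18 ± 0.323 (0.014), and the second call was lost without sheep brain C (0.88 ± 0.322, 0.0607). The uptake transporters SLC6A11, SLC6A12 and SLC6A13 were called higher in brain in each species, 3 of 3 measured. Of all genes 33.9% were called higher in cattle, 28.6% in sheep and 31.4% in goat. SLC6A11, which clears GABA into astrocytes, was at 46.4, 53.1 and 24.2 RPKM in cattle brain, 35.0, 39.5 and 12.8 RPKM in sheep brain and 16.7, 17.8 and 15.5 RPKM in goat brain.

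The scaffold and chloride genes were mixed. GPHN, the scaffold gephyrin of inhibitory synapses, differed by 0.83 log2 units in cattle, 0.44 in sheep and 0.86 in goat and was not called in any. SLC12A5, the neuronal chloride exporter, was called higher in brain in each species, at 11.47 ± 0.412 log2 units in cattle, whereas SLC12A2, the chloride importer, was not called in any. SLC38A2, a glutamine transporter, was lower in cattle brain, at -2.08 ± 0.231 (edgeR, BH-adjusted p = 5.84e-05), as was OXSR1, a kinase that acts on chloride transporters, at -1.39 ± 0.154 (5.53e-05). These were the 2 pathway genes called lower in cattle brain. Between species in brain, 4 of the 28 pathway genes tested were called in cattle against sheep, 4 in cattle against goat and 3 in sheep against goat, where 26.2%, 23.6% and 18.7% of all genes were called. With sheep brain C left out, these counts were 3 in cattle against sheep and 3 in sheep against goat, where 20.3% and 15.9% of all genes were called.

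Among 24 genes of interneuron identity and peptides, 20 of the 21 tested were called higher in cattle brain, 8 of 11 in sheep brain and 9 of 12 in goat brain, where 33.9%, 28.6% and 31.4% of all genes were called higher. Without library C 8 of 11 were again called higher in sheep brain, and NOS1, a nitric oxide synthase, was called lower beside SOX6 (-1.13 ± 0.352, edgeR, BH-adjusted p = 0.0246). SOX6, a factor of developing interneurons that is also found in muscle, was called lower in brain in each species, at -1.61, -3.92 and -2.04 log2 units in cattle, sheep and goat. LHX6, a factor that marks PVALB and SST interneurons, was at 9.57, 9.63 and 7.93 RPKM in cattle brain, 3.61, 4.30 and 1.84 RPKM in sheep brain and 5.12, 4.43 and 8.19 RPKM in goat brain. It was higher in brain in cattle (2.59 ± 0.225) and goat (2.66 ± 0.399) and was not called in sheep (0.68 ± 0.446). Each sheep brain lay below every cattle and every goat brain for LHX6, but sheep against goat was not called (-0.86 ± 0.354, edgeR, BH-adjusted p = 0.0922). Cattle brain exceeded sheep brain in LHX6 by 1.48 ± 0.357 log2 units (edgeR, BH-adjusted p = 0.00531), and by 1.26 ± 0.321 (0.00731) without sheep brain C.

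The other calcium buffers did not move as 1 group. Of 12 listed, 6 of 11 tested were called higher in cattle brain, 5 of 9 in sheep brain (4 without library C) and 5 of 9 in goat brain. Over all genes the shares called higher were 33.9%, 28.6% (31.7% without library C) and 31.4%. In the same list CASQ1 and CASQ2, the calcium stores of fibres, were called lower in brain in each species. HPCA, the neuronal sensor hippocalcin, was higher in brain by 11.64 ± 0.462 log2 units in cattle, 10.53 ± 0.72 in sheep and 8.82 ± 0.465 in goat. Of the 15 listed genes of Purkinje cells and cerebellum, 7 of 9 tested were called higher in cattle brain, 6 of 8 in sheep brain (7 without library C) and 8 of 9 in goat brain, beside the same shares over all genes. That list holds PVALB and CALB1 themselves. One gene was called lower in cattle brain, ZIC1 (-3.87 ± 0.469), and 1 in sheep brain, CALB1. CA8 stood at 24.99, 18.5 and 7.11 RPKM in cattle brain, 17.4, 35.8 and 7.60 RPKM in sheep brain and 12.9, 18.6 and 25.7 RPKM in goat brain. CA8 varied between libraries as PVALB did in cattle, where library C was lowest for both. It did not in sheep, where library C was lowest for CA8 and highest for PVALB. Nor did it in goat, where library C was highest for CA8 and lowest for PVALB.

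Across the 9 brain libraries, the genes with the most similar profiles were sought by Pearson correlation of log2 level among matched genes with at least 1 RPKM. GAD1 and GAD2 were each other's closest match, at 0.992, and at 0.927 without sheep brain C. For GABRB2 the closest was PPTC7 (0.998, and 0.926 without that library), for GABRD DPH1 (0.991 and 0.971) and for SLC32A1 MLC1 (0.902 and 0.906). PVALB was closest to MAP2K5 (0.978 in both) and CALB1 to SOD1 (0.993 and 0.994). These values describe 9 libraries that share species and gene models, and the closest gene was picked from all those compared.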

How the data were processed

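Poly(A) RNA of 2 adult tissues, brain and muscle, was sequenced in 3 ruminant species, with 3 libraries per group. The deposited values are read counts per gene on each species' own gene models, with exon coordinates. The submitters' processing notes name Trimmomatic 0.39, STAR 2.7.6 and featureCounts, and the build ARS-UCD1.2. The sheep and goat builds, strandedness and the handling of reads with several placements are not stated in the sources used here.

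The 7 genes, the lists of other genes and the tests were chosen with earlier results of these data known. Cattle genes were named by position from a RefSeq table of a later build (19417 of 27607 genes), from which no coordinate is used here. Partners were found from shared pairs of neighbouring exon lengths, then from 1 shared exon length with 5 neighbours on each side.

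Counts were fitted in R 4.3.3 by the robust quasi-likelihood test of edgeR 4.0.16, filtered with filterByExpr and scaled by TMM, within a species on all its genes. Species were compared in 1 fit of 18 libraries with exonic length as an offset. Adjusted p-values are Benjamini-Hochberg over all genes tested. Each SE is the log2 difference divided by the root of the F statistic, and intervals are 2 SE wide on each side. RPKM uses the scaled totals. The fits were tested on simulated data. Alternatives were RLE scaling, totals alone, no filter, DESeq2 1.42.0, a replicate block, no length offset, only the groups compared, first-pass matches and leaving out each library. All 7 genes were named, and of other lists mainly the members not called and up to 4 called of lowest adjusted p. CALB2, GABRA2, GABRA4, NOS1, ZIC1, MYH4, SOX10, NEFH, SNAP25, CASQ1, SLC17A7, TBR1, GRIN2B, NEUROD2, GABRA6, LHX6, HPCA and CA8 were chosen from their lists after their values were seen. No sequence is printed. Some members of the lists are counted but not reported singly here.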

Additional observations from a re-analysis of the deposited data

Results flagged for a closer look

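The brain minus muscle difference of CALB1 differed between species by the test of the difference itself. Cattle minus sheep was 3.53 log2 units (edgeR, BH-adjusted p = 0.0224), and it missed the threshold without cattle brain B or C or cattle muscle A or B (0.057 to 0.0652). All 3 sheep brains lay below all 3 sheep muscles, while cattle brain held 1, 4 and 4 counts and cattle muscle 0, 0 and 1. Sheep minus goat was -3.64 log2 units (edgeR, BH-adjusted p = 0.00864), with all 3 goat brains above all 3 goat muscles. The cause of either difference was not tested.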

How the results depend on the processing

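The labels do not say whether a letter pairs brain and muscle libraries. The correlations below cannot decide it, since tissues of the same animal need not depart from their group means alike. Brain and muscle libraries of the same letter correlated at 0.00387, 0.0126 and -0.0383 in cattle, 0.0507, 0.0542 and 0.0412 in sheep and 0.203, -0.235 and -0.0476 in goat, as deviations from group means. With the replicate block, 0 of the 7 genes had a different tissue difference in cattle against sheep (1 without it), CALB1 lost its calls at BH-adjusted p of 0.057 there and 0.0701 for sheep brain against muscle, and the difference of tissue differences was 0.00256 log2 units for CALB1 in cattle against goat and -0.52 for PVALB in cattle against sheep, both of opposite sign to the main value, as was PVALB in cattle against goat brain at -0.031. The genes called under the block numbered 1056 for the difference of tissue differences in cattle against goat (1674 without it) and 345 in sheep against goat (916 without it).

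Without the length offset, the call counts of the 7 genes were 1 in cattle against sheep brain (2 with it) and 3 in sheep against goat brain (1 with it). The shares of all genes called in that fit are not given here, so these counts are not read as a result about the 7 genes. The differences in brain turned to 0.19 for GABRD and -1.08 for PVALB in cattle against goat and to -0.21 for SLC32A1 in sheep against goat, and PVALB in sheep against goat muscle was called at -2.42 (BH-adjusted p = 0.0329). In fits of only the groups compared the counts were 1 in cattle against sheep brain and 0 in sheep against goat brain, PVALB in cattle against goat brain was -0.026, and 1501 and 784 of all genes were called in cattle against sheep and sheep against goat brain (3232 and 2310 in the joint fit). With first-pass matches alone 2 of the 7 genes were called higher in brain over all species (6 with all matches) and 1 in cattle against sheep brain, since only GAD1, GAD2 and CALB1 remain. All genes called then numbered 2133, 1765 and 1502 in cattle against sheep, cattle against goat (2914 in the main fit) and sheep against goat brain, 2776 and 1784 in muscle of cattle against goat (4199) and sheep against goat (2908), and 525 for the difference of tissue differences in sheep against goat. DESeq2 called 2 of the 7 genes in sheep against goat brain, with GABRD at an adjusted p of 0.0437, and 1 with a different tissue difference in cattle against goat, which was PVALB. It gave CALB1 0.34 there and called 1703 genes for that difference in sheep against goat (916 in the main fit). The shares of all genes that DESeq2 called in the comparisons of these 2 counts are not given here. The counts are therefore not read as a result about the 7 genes. With totals alone PVALB in cattle against goat brain was -0.071, CALB1 over all species was called at 1.29 (edgeR, BH-adjusted p = 0.0498, against 0.48 ± 0.567 and 0.463 with TMM), and CALB1 in sheep against goat muscle lost its call (0.0634), as with RLE scaling (0.0514).

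When 1 library was left out, the counts ran from 1 to 2 in sheep against goat brain and, for different tissue differences, from 0 to 1 in cattle against goat, 0 to 1 in cattle against sheep and 1 to 2 in sheep against goat. All genes called then ran from 1777 to 2719 in sheep against goat brain and, for different tissue differences, from 1809 to 2812 in cattle against sheep. PVALB in muscle ran from -3.25 to -2.38 in cattle against goat, -2.37 to 0.16 in cattle against sheep and -3.06 to -0.53 in sheep against goat. In brain the values ran from -0.20 to 0.10 for GAD1, -0.19 to 0.10 for GAD2 and -0.30 to 0.62 for PVALB in cattle against goat, from -0.85 to 0.17 for GABRB2 in sheep against goat and from -0.011 to 0.34 for SLC32A1 in cattle against sheep. The difference of tissue differences ran from -0.56 to 1.42 for CALB1 in cattle against goat and from -1.74 to 0.78 for PVALB in cattle against sheep. Genes called for that difference ran from 1146 to 2732 in cattle against goat, the highest without sheep brain C, and from 479 to 1285 in sheep against goat. Of the values of the 7 genes, 348 under other settings and 799 with 1 library left out kept direction and side of the threshold. At these depths CALB1 and the muscle levels of GAD1, GAD2, SLC32A1, GABRB2 and GABRD rest on few counts, and the cause of the changes above was not tested unless named.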
